A study of Mus musculus with 6 samples.

Results

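The imprinted Peg10-Sgce cluster of mouse chromosome 6 was followed through 7 of its genes, Calcr, Tfpi2, Casd1, Sgce, Peg10, Ppp1r9a and Asb4. They were taken by name, as the 7 rows with these symbols among the 53546 rows of the count tables. A row was kept where 90% or more of its bases fell within exons of the gene it is named for in the mouse genome build GRCm38, which held for 1740 of all rows; these are called rows in register. All 7 rows passed, each with 100% of its bases in its own exons and 0 bases shared with another row. The series holds 6 RNA-seq libraries: degeneration 1 to 3, labelled intervertebral disc degeneration, and wild type 1 to 3, labelled wild type. Both groups are C57BL/6 mice, and the labelled source is the intervertebral disc, the pad of fibrous ring and gelatinous core between vertebrae. The labels give neither an allele or agent that brought about degeneration nor a sex, and do not say whether libraries of a group came from separate animals, so p-values measure only the spread between these libraries. The design text, by contrast, names retinal RNA from mice 21 days old, while every sample label names the disc, and the sample labels set the groups.

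Genomic imprinting is the expression of a gene mainly from the copy inherited from one parent, set by DNA methylation laid down in the egg or sperm. In this cluster the methylated control region lies over the shared start of Peg10 and Sgce, which are read mainly from the father's copy, while several genes on either side are read mainly from the mother's copy in some tissues, placenta and brain among them. Peg10 is derived from an ancient retrotransposon and is needed for the placenta; Sgce encodes epsilon-sarcoglycan, a membrane protein of the dystrophin-glycoprotein complex that is mutated in human myoclonus dystonia. Asb4 encodes a substrate adaptor of a ubiquitin ligase, Ppp1r9a encodes neurabin, an actin-binding scaffold for protein phosphatase 1, and Calcr encodes the calcitonin receptor, known from osteoclasts and kidney. Tfpi2 encodes an extracellular Kunitz-type protease inhibitor, and Casd1 encodes the enzyme that adds O-acetyl groups to sialic acids. The counts do not separate the parental copies, so nothing here measures imprinting itself.

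On GRCm38 (GENCODE M21 annotation) the genes run in the order Calcr (chr6:3685680-3764714, minus strand), Tfpi2 (chr6:3962595-3988919, minus), Casd1 (chr6:4600839-4643355, plus), Sgce (chr6:4674350-4747207, minus), Peg10 (chr6:4747306-4760517, plus), Ppp1r9a (chr6:4902917-5165661, plus) and Asb4 (chr6:5383386-5433022, plus). Peg10 and Sgce stand head to head with 98 bases between them, and the whole span from Calcr to Asb4 is 1747.343 kb. The promoter table from RefSeq (GRCm38.p6, 250 bases before to 50 after each start) held 5 of the 7 genes, without Peg10 and Sgce. Windows of 3 genes are shown because their values below differ most in kind. Asb4 was high in 4 libraries and Tfpi2 in the other 2, while Casd1 varied least of the 3, by 1.53-fold in CPM. The capitals mark CpG dinucleotides, the sites of DNA methylation, which was not measured here.
Asb4, chr6:5383136-5383435, plus strand: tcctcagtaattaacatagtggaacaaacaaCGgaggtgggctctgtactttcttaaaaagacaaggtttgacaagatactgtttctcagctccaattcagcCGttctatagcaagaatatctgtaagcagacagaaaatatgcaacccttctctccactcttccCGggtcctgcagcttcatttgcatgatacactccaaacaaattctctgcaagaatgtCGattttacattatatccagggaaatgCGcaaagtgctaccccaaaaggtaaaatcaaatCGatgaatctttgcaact
Tfpi2, chr6:3968326-3968625, minus strand: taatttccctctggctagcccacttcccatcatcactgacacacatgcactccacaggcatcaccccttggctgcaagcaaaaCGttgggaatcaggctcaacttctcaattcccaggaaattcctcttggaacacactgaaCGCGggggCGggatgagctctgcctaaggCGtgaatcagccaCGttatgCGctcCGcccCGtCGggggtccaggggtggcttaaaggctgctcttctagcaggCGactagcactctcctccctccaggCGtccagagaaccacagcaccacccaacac
Casd1, chr6:4600661-4600960, plus strand: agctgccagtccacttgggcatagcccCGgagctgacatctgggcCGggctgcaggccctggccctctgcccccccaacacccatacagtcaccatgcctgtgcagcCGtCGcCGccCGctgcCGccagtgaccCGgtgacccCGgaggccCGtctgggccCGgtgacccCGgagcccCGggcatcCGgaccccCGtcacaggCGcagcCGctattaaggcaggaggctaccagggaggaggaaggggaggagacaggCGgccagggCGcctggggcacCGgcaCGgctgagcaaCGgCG
The Asb4 window held 6 CpG and 40.3% G and C, the Tfpi2 window 12 CpG and 57.3%, and the Casd1 window 23 CpG and 72.7%, against a median of 7 CpG over all 32851 windows of the table. A few short motifs of promoters were searched on both strands, each on its own, so that a match may overlap that of another motif. The letters TATAA, the core of a TATA box, were found in 24.9% of all windows and of the 3 shown only in that of Asb4. That match lies on the strand opposite to the gene. The CCAAT box was found in 37.4% of all windows and of the 3 shown only in that of Asb4. The GC box, written GGGCGG, was found in 35.7% of all windows and matched the Tfpi2 and Casd1 windows and not that of Asb4. The E-box, written CANNTG, was found in 72.3% of all windows and matched all 3. RefSeq lists further starts for each of these genes, and their windows differ from those shown. The other Asb4 window held neither TATAA nor CCAAT. The further Tfpi2 windows held CCAAT, no GC box and 2 CpG each, and the other Casd1 window held 5 CpG and 40.7% G and C. Counts summed over a gene do not say which start was used, so the windows shown cannot be tied to the levels below.

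The libraries held 3119215 to 4009562 counts each, so that 3 counts, the limit that a count of 0 allows, stood at 0.748 to 0.962 CPM, the count scaled to a library total of 1000000. Markers of tissues, taken from rows placed by position, did not follow the labels. Those of heart and striated muscle (8 of 15 listed genes placed) summed to 41832, 52.4 and 51.0 CPM in degeneration 1 to 3, against 38702 to 40843 CPM in wild type. Those of kidney tubule (6 of 12 placed) summed to 49.1, 10374 and 8252 CPM in degeneration 1 to 3, against 33.3 to 45.2 CPM in wild type. Those of disc and cartilage (5 of 13 placed) summed to 11.0 to 13.1 CPM in degeneration, with Acan, the aggrecan gene of cartilage, at 0 in all 3 libraries, and to 16.6 to 21.2 CPM in wild type. Of notochord markers 2 of 7 were placed. Krt8, a keratin gene that epithelia such as kidney tubule also express, had 0, 127 and 125 CPM in degeneration 1 to 3, against 0.301 to 0.839 CPM in wild type, and Krt19 had no count in any library. Degeneration 2 and 3 thus stood apart from the other 4 libraries. Each tested gene of the cluster is given below with all 6 libraries, without degeneration 1, and with degeneration 1 as the only degeneration library. In bulk RNA, fewer cells of a type and less RNA per cell cannot be told apart, and the part of tissue content in the values below was not tested.

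None of the 6 tested genes of the cluster passed the test between degeneration and wild type with all 6 libraries, where 0% of the 14967 tested rows passed (edgeR quasi-likelihood test, Benjamini-Hochberg adjustment, adjusted p under 0.05) and 17.3% had an unadjusted p under 0.05. DESeq2 passed none of them either, where it passed 5.54% of the rows it adjusted (4.92% higher, 0.629% lower). Peg10 was lowest in the 3 degeneration libraries. Asb4, Sgce, Tfpi2 and Calcr split degeneration 1 from degeneration 2 and 3. Casd1 and Ppp1r9a, the most abundant genes of the cluster, varied least.

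**Figure D1:**
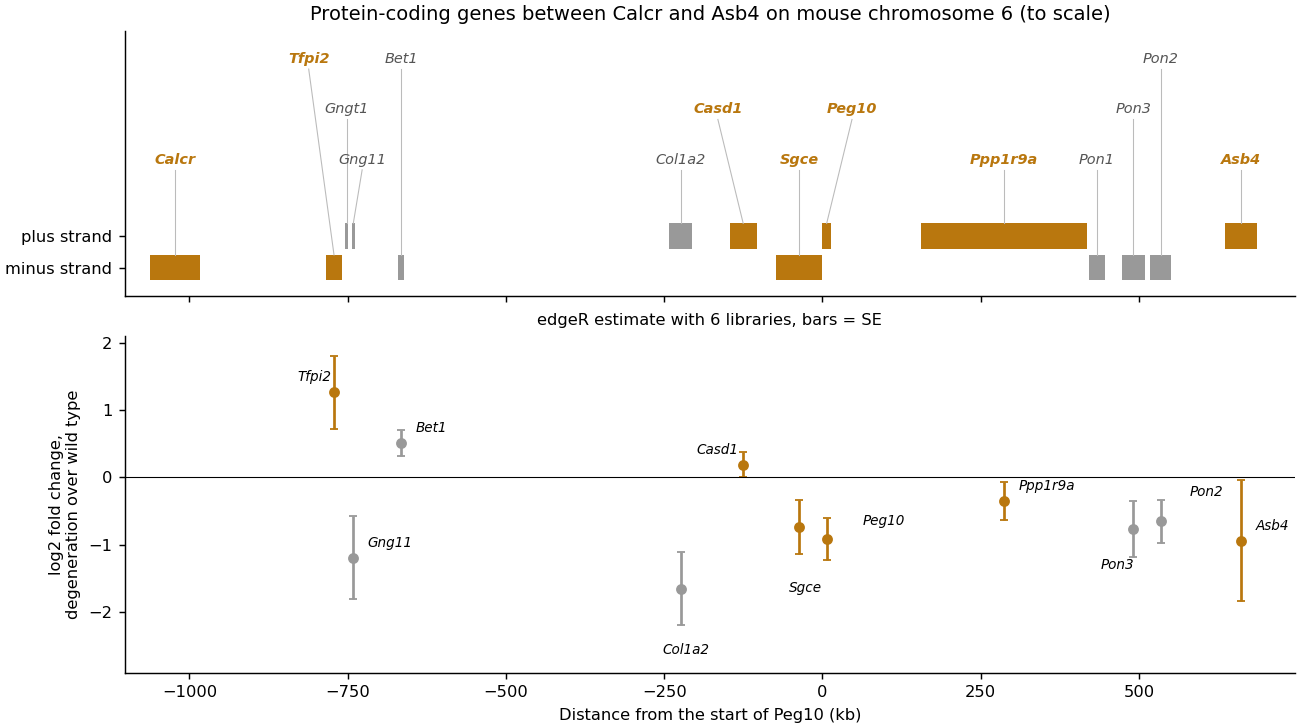
Top, the protein-coding genes between Calcr and Asb4 with rows in register, drawn to scale by distance in kb from the start of Peg10, with the 7 described genes in brown and other genes in grey. Bottom, the edgeR log2 fold change of degeneration over wild type for each tested gene with all 6 libraries (bars, SE); Tfpi2 stands at 1.26 and Peg10 at -0.91, and Calcr, Gngt1 and Pon1 were not tested.

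Peg10 had 12.3, 8.69 and 9.94 CPM in degeneration 1 to 3, against 18.0, 19.9 and 13.6 CPM in wild type 1 to 3. All 3 degeneration libraries stood below all 3 wild type libraries, and the nearest pair were degeneration 1 and wild type 3. The means were 10.3 ± 1.82 CPM in degeneration and 17.1 ± 3.23 CPM in wild type (SD, n = 3 each), from 30 to 39 counts per degeneration library and 45 to 72 per wild type library. Peg10 also kept this order under the scaling of the test (TMM, which sets a factor for each library). Such an order, every degeneration library below every wild type library, was met by 8.65% of tested rows in CPM and by 11.9% with the TMM factors. The log2 fold change was -0.91 ± 0.31 (SE), with an unadjusted p of 0.0256 and an adjusted p of 0.259 in edgeR, so the difference did not pass. Adjusted p over 18 fits ran between 0.00102 and 0.847 for Peg10. The summed markers of fibroblasts and of endothelium were also lower in every degeneration library in CPM, and were not read with the TMM factors. Those of fibroblasts (4 of 6 listed genes placed) summed to 603 to 956 CPM in degeneration and 959 to 2817 CPM in wild type. Those of endothelium (4 of 5 placed) summed to 349 to 506 CPM in degeneration and 652 to 802 CPM in wild type. For fibroblasts degeneration 1 (956 CPM) and wild type 3 (959 CPM) stood almost level. Within the lists, Col1a1, Col1a2, Pecam1, Eng and Tek were lower in every degeneration library in CPM, an order met by 9.39% of all loci. Dcn, Pdgfra and Emcn overlapped between groups. Pdgfra had 169, 208 and 282 CPM in degeneration 1 to 3, against 180, 178 and 143 CPM in wild type 1 to 3. No placed gene of either list was at 0 in all libraries, and their part in the difference of Peg10 was not tested.

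Sgce, the neighbour that starts head to head with Peg10, had 70.8, 35.9 and 41.0 CPM in degeneration 1 to 3, against 74.6, 62.6 and 87.7 CPM in wild type 1 to 3. Degeneration 1 lay within the wild type range, and degeneration 2 and 3 below it. The means were 49.3 ± 18.9 CPM in degeneration and 75.0 ± 12.5 CPM in wild type (SD, n = 3 each), and the log2 fold change was -0.74 ± 0.40 (edgeR adjusted p = 0.361). The number of Peg10 counts per Sgce count, which does not depend on scaling, was 0.173, 0.242 and 0.242 in degeneration 1 to 3, against 0.241, 0.317 and 0.155 in wild type 1 to 3. The groups overlapped, with a mean log2 ratio of -2.19 ± 0.28 in degeneration and -2.13 ± 0.52 in wild type (SD, n = 3 each). The difference of -0.065 had an exact two-sided permutation p of 1, where 3 against 3 libraries cannot go below 0.1. The 2 libraries farthest apart in this ratio, wild type 2 and wild type 3, belonged to the same group.

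Asb4, at the far end of the cluster, had 29.9, 4.06 and 4.17 CPM in degeneration 1 to 3, against 23.4, 19.6 and 28.3 CPM in wild type 1 to 3. Degeneration 1 was the highest of all 6 libraries, and degeneration 2 and 3 were the lowest, with 14 and 13 counts. The means were 12.7 ± 14.9 CPM in degeneration and 23.8 ± 4.39 CPM in wild type (SD, n = 3 each), so the spread within degeneration was wider than the difference (log2 fold change -0.94 ± 0.90, edgeR adjusted p = 0.576). The heart and muscle marker sums given above split the libraries in the same way, and the kidney marker sums in the opposite way.

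Ppp1r9a had 406, 333 and 346 CPM in degeneration 1 to 3, against 349, 414 and 458 CPM in wild type 1 to 3. The groups overlapped, and the lowest wild type library lay between degeneration 1 and degeneration 3. The means were 362 ± 38.8 CPM in degeneration and 407 ± 55.0 CPM in wild type (SD, n = 3 each), with a log2 fold change of -0.35 ± 0.28 (edgeR adjusted p = 0.510).

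Tfpi2 went the other way from Asb4. It had 3.78, 22.3 and 18.9 CPM in degeneration 1 to 3, against 6.48, 4.47 and 4.22 CPM in wild type 1 to 3. Degeneration 2 and 3 were above all other libraries, with 77 and 59 counts, and degeneration 1 was the lowest of the 6, with 12. The means were 15.0 ± 9.87 CPM in degeneration and 5.06 ± 1.24 CPM in wild type (SD, n = 3 each), and the log2 fold change of 1.26 ± 0.54 did not pass (edgeR adjusted p = 0.294).

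Calcr had 0, 11 and 11 counts in degeneration 1 to 3, against 0 counts in each of wild type 1 to 3. In CPM these were 0, 3.19 and 3.53 in degeneration. Calcr was therefore seen in degeneration 2 and 3 alone, and 4 of the 6 libraries held none. The value of degeneration 2 was 3.52-fold the highest limit that a count of 0 allows in a wild type library, 0.904 CPM. That limit covers the counting error of the 0 only. The counting error of the 11 counts is left out, so the true ratio may be smaller. Calcr did not reach the count filter of edgeR's test. In fits of all 6 libraries with other filters it did not pass, with an edgeR adjusted p of 0.244 without a filter and 0.234 with a mean of at least 1 CPM, and DESeq2 gave it an unadjusted p of 0.0456 and no adjusted p. Of 2 miRNA genes inside Calcr, Mir489 had no count in any library and Mir653 had 0.290 CPM in degeneration 2 and none elsewhere, in a library type that does not select small RNAs.

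Casd1 had 131, 137 and 136 CPM in degeneration 1 to 3, against 108, 89.8 and 110 CPM in wild type 1 to 3. All degeneration libraries were above all wild type libraries in CPM, an order met by 11.2% of tested rows. With the TMM factors, which were 0.864 in degeneration 1, 1.23 and 1.25 in degeneration 2 and 3 and 0.881 to 0.940 in wild type, the groups of Casd1 overlapped, and 8.57% of tested rows stood higher in every degeneration library. The means were 135 ± 3.11 CPM in degeneration and 103 ± 11.4 CPM in wild type (SD, n = 3 each), and the log2 fold change was 0.19 ± 0.18 (edgeR adjusted p = 0.574). Scaling by library totals alone moved the median log2 fold change of all rows to 0.29, against 0.00 with the TMM factors, and that of Casd1 to 0.45 ± 0.20, an excess over the median of all rows much like that with the TMM factors.

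**Figure D2:**
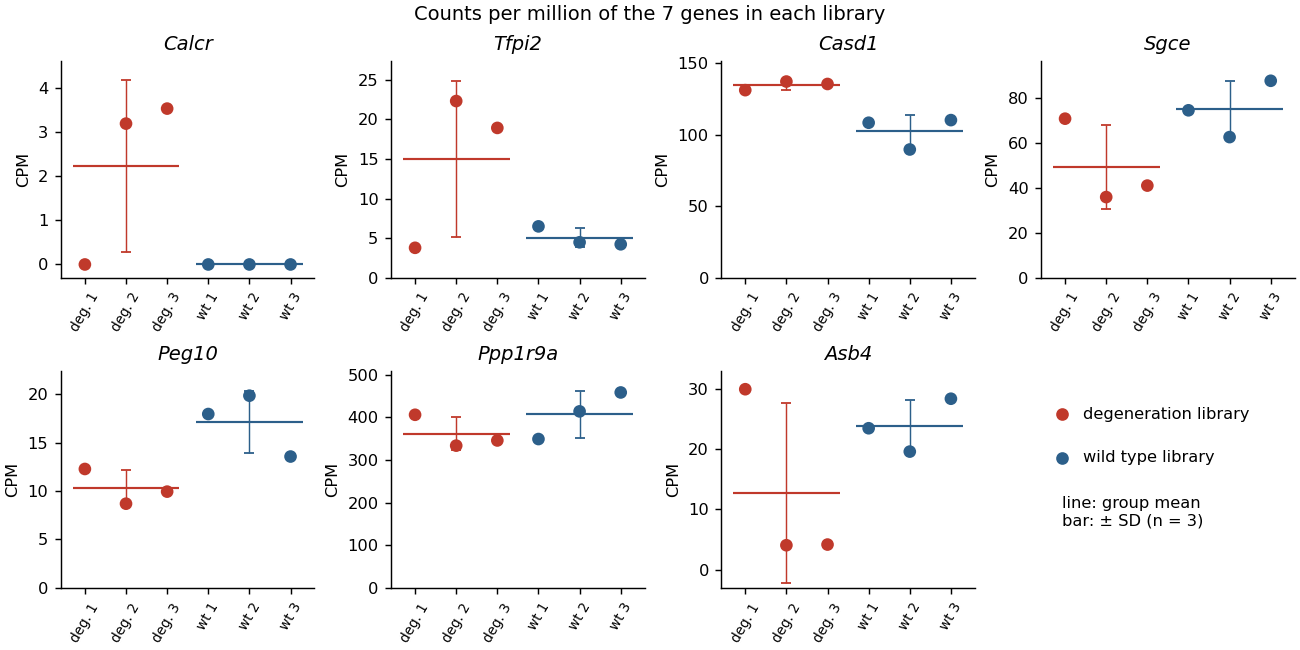
CPM (vertical axes, linear) of the 7 genes in each library, degeneration 1 to 3 in red and wild type 1 to 3 in blue, with lines for group means and bars for the SD of 3 libraries. In degeneration 2 and 3 Asb4 has 4.06 and 4.17 CPM, with 19.6 CPM or more in the other libraries, and Tfpi2 has 22.3 and 18.9 CPM, with 6.48 CPM or less in the other libraries.

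Per length, levels of different genes can be set side by side, as CPM per kb of the exons counted. In wild type the order of means was Ppp1r9a (28.0 CPM per kb), Casd1 (25.5), Sgce (7.07), Asb4 (6.05), Tfpi2 (2.90), Peg10 (2.57) and Calcr (0). In degeneration it was Casd1 (33.4 CPM per kb), Ppp1r9a (24.9), Tfpi2 (8.59), Sgce (4.64), Asb4 (3.23), Peg10 (1.55) and Calcr (0.572). In wild type the ranges of Ppp1r9a (24.0 to 31.5 CPM per kb over the libraries) and Casd1 (22.2 to 27.3) overlapped. So did those of Tfpi2 (2.42 to 3.71) and Peg10 (2.03 to 2.98). The ranges of Sgce (5.90 to 8.27) and Asb4 (4.98 to 7.21) overlapped too, although Sgce lay above Asb4 within each wild type library. In degeneration Casd1 (32.5 to 34.0 CPM per kb) lay above Ppp1r9a (22.9 to 27.9) in every library, while Tfpi2 (2.16 to 12.8), Sgce (3.39 to 6.68) and Asb4 (1.03 to 7.61) overlapped one another, and Asb4 also overlapped Peg10 (1.30 to 1.84).

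The same values were read as shares of the cluster, the summed counts of the 7 genes, which was 2077, 1881 and 1743 counts in degeneration 1 to 3, against 2325, 2182 and 2330 in wild type 1 to 3. The sum itself overlapped between groups, at 654, 545 and 559 CPM in degeneration 1 to 3, against 580, 610 and 702 CPM in wild type 1 to 3. Ppp1r9a took 61.2% to 62.1% in degeneration and 60.2% to 67.8% in wild type. Casd1 took 20.1%, 25.2% and 24.3% in degeneration 1 to 3, against 18.7%, 14.7% and 15.7% in wild type 1 to 3. The shares of Casd1 did not overlap between groups, although the 95% Wilson interval of degeneration 1, 18.4% to 21.9%, took in the share of wild type 1. Peg10 took 1.88%, 1.59% and 1.78% in degeneration 1 to 3, against 3.10%, 3.25% and 1.93% in wild type 1 to 3. Peg10 was again lowest in degeneration, and wild type 3 (interval 1.45% to 2.57%) could not be told from degeneration at this depth. Asb4 took 4.57%, 0.744% and 0.746% in degeneration 1 to 3, against 4.04%, 3.21% and 4.03% in wild type 1 to 3. Tfpi2 took 0.578%, 4.09% and 3.39% in degeneration 1 to 3, against 1.12%, 0.733% and 0.601% in wild type 1 to 3. Asb4 and Tfpi2 thus exchanged rank within the cluster in degeneration 2 and 3, while degeneration 1 kept the wild type order of the pair.

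Without degeneration 1, 5 of the 6 genes that were tested with all 6 libraries passed, in a fit where 50.4% of all 17272 tested rows passed (25.9% higher, 24.5% lower). Among rows in register tested both ways, 279 of 481 passed (93 higher, 186 lower). Asb4 fell by 2.94 ± 0.28 on the log2 scale (edgeR adjusted p = 2.2e-06), Sgce by 1.38 ± 0.18 (3.5e-05), Peg10 by 1.30 ± 0.26 (0.00102) and Ppp1r9a by 0.69 ± 0.16 (0.00309). Tfpi2 rose by 1.59 ± 0.27 on the log2 scale (edgeR adjusted p = 0.000300). Casd1 stood at -0.013 ± 0.14 (edgeR adjusted p = 0.951). Calcr entered this fit only through degeneration 2 and 3, the libraries that hold its counts, so no call is given for it. With so many rows passing, the count of 5 is not a result about the cluster. With degeneration 1 as the only degeneration library, assumed to vary like the wild type libraries, none of the 6 tested genes passed, where 0.0125% of 15997 rows passed. In that fit Peg10 stood at -0.40 ± 0.33, Sgce at 0.00 ± 0.23, Asb4 at 0.41 ± 0.26, Ppp1r9a at 0.072 ± 0.22, Tfpi2 at -0.35 ± 0.51 and Casd1 at 0.43 ± 0.19 on the log2 scale, with edgeR adjusted p between 0.809 and 1.000. Tfpi2, Ppp1r9a and Asb4 had the other sign there than with all 6 libraries, Sgce showed no difference in size, and Peg10 and Casd1 kept their sign without passing. Over all fits adjusted p ran from 2.2e-06 to 0.885 for Asb4, from 3.5e-05 to 1.000 for Sgce, from 0.00309 to 0.956 for Ppp1r9a, from 0.000300 to 0.910 for Tfpi2 and from 0.249 to 0.984 for Casd1.

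**Figure D3:**
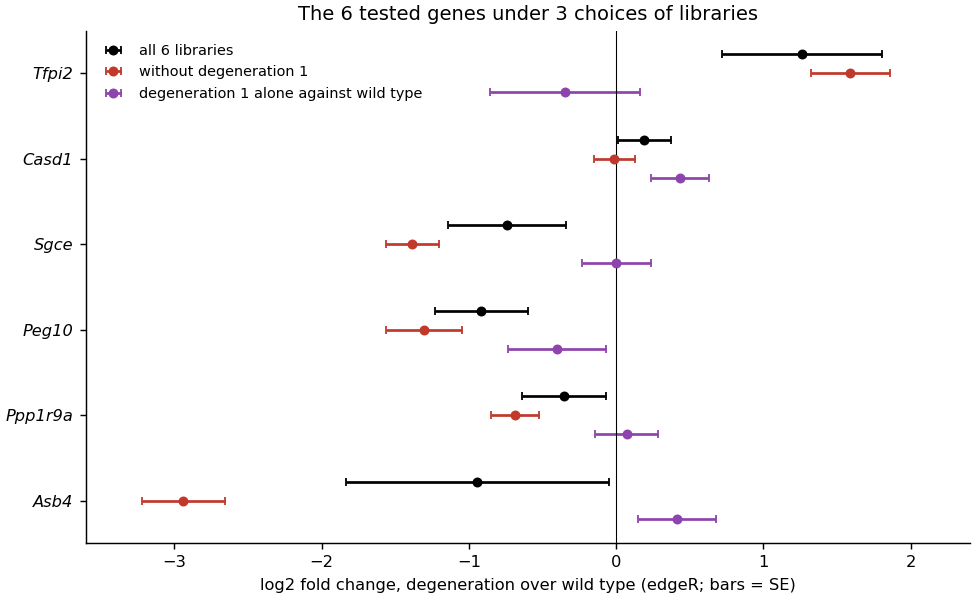
edgeR log2 fold change of degeneration over wild type (horizontal axis; bars, SE) for the 6 tested genes with all 6 libraries (black), without degeneration 1 (red) and with degeneration 1 as the only degeneration library (purple). Asb4 runs from -2.94 without degeneration 1 to 0.41 with it alone, and Casd1 from -0.013 to 0.43.

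With all 6 libraries the median log2 fold change of the 6 tested genes was -0.55, against -0.11 over the 481 tested rows in register and 0.00 over all rows tested. Across the 6 libraries, Pearson's r of log2(CPM + 1) was 0.97 between Sgce and Asb4, -0.98 between Tfpi2 and Asb4 and -0.93 between Tfpi2 and Sgce. It was -0.93 between Casd1 and Peg10 and 0.70 between Sgce and Peg10. No r was taken with the TMM factors, under which the groups of Casd1 overlapped. These values are descriptions over 6 points that share libraries and depth, with degeneration 2 and 3 at one end of the pairs among Sgce, Asb4 and Tfpi2. The rows in register most like each gene in this measure were drawn from 458 candidates with a mean of at least 5 CPM. For Peg10 they were Npr2, a natriuretic peptide receptor (r = 0.992), Glipr2 (0.990) and Nans, an enzyme of sialic acid synthesis (0.985). For Asb4 they were Gm12439 (0.999), Asph, which hydroxylates aspartate residues (0.997), and Asb15, another adaptor of the ASB family (0.997). For Tfpi2 they were Stra6l (0.998), Invs (0.997) and Hepacam2 (0.997), and for Sgce Cntn5, a neural adhesion molecule (0.985), Gm49268 (0.976) and Car8 (0.976). For Casd1 they were Rab18, a small GTPase of membrane traffic (0.977), Ccny (0.963) and Mrpl50, of the mitochondrial ribosome (0.952), and for Ppp1r9a Nsmaf (0.872), Gm8652 (0.867) and Polr1e (0.857). Stra6l and Hepacam2 reached the mean of 5 CPM only through degeneration 2 and 3, and Gm12439 and Gm8652 only through the other libraries. The r of these rows largely reflects the libraries that admitted them and lends no support.

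Around the 7 genes, 56 other rows in register start within 1 Mb of the span from Calcr to Asb4. Of these, 19 had no count and 21 were tested, and none passed with all 6 libraries. Without degeneration 1, 2 of these 21 rose and 11 fell, against 93 and 186 of the 481 rows in register tested both ways, and 24 and 54 of the 125 such rows on chromosome 6. With all 6 libraries their median log2 fold change was -0.60, beside the -0.55 of the 6 tested genes of the cluster. Beside Tfpi2, Gng11, a G protein gamma subunit, had 111, 29.6 and 39.8 CPM in degeneration 1 to 3, against 120, 137 and 130 CPM in wild type 1 to 3. Upstream of Casd1, Col1a2, a chain of type I collagen, had 408, 317 and 353 CPM in degeneration 1 to 3, against 1749, 832 and 448 CPM in wild type 1 to 3. Both stood lower in every degeneration library in CPM, Gng11 by little in degeneration 1 and with overlap under the TMM factors. Neither passed with 6 libraries (edgeR adjusted p of 0.345 for Gng11 and 0.258 for Col1a2). In CPM, 4 of the 21 tested neighbours were lower in every degeneration library and 2 were higher, beside 67 and 59 of the 481 tested rows in register. With the TMM factors 3 of the 21 were lower and 1 higher, beside 77 and 49 of the 481. Past Ppp1r9a, Pon3 and Pon2, which encode lactone-hydrolysing paraoxonases, overlapped between groups, Pon3 with 39.8 to 79.3 CPM in degeneration, against 68.1 to 108 CPM in wild type, and Pon2 with 55.8 to 83.8 CPM in degeneration, against 73.5 to 115 CPM in wild type. Beyond Asb4, Pdk4, a kinase that restrains pyruvate oxidation, had 474, 87.5 and 95.2 CPM in degeneration 1 to 3, against 1258, 1021 and 295 CPM in wild type 1 to 3, and the groups overlapped. Beyond Calcr, Samd9l, an interferon-induced gene, and Hepacam2 were high where Tfpi2 was: Samd9l had 216, 1240 and 1205 CPM in degeneration 1 to 3, against 261 to 336 CPM in wild type. Hepacam2 had 0.315, 83.4 and 59.0 CPM in degeneration 1 to 3, against 0.904 to 2.49 CPM in wild type. Without degeneration 1, Samd9l and Bet1 were the 2 rows that rose; Hepacam2 was not tested with all 6 libraries and entered that fit only through degeneration 2 and 3.

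**Figure D4:**
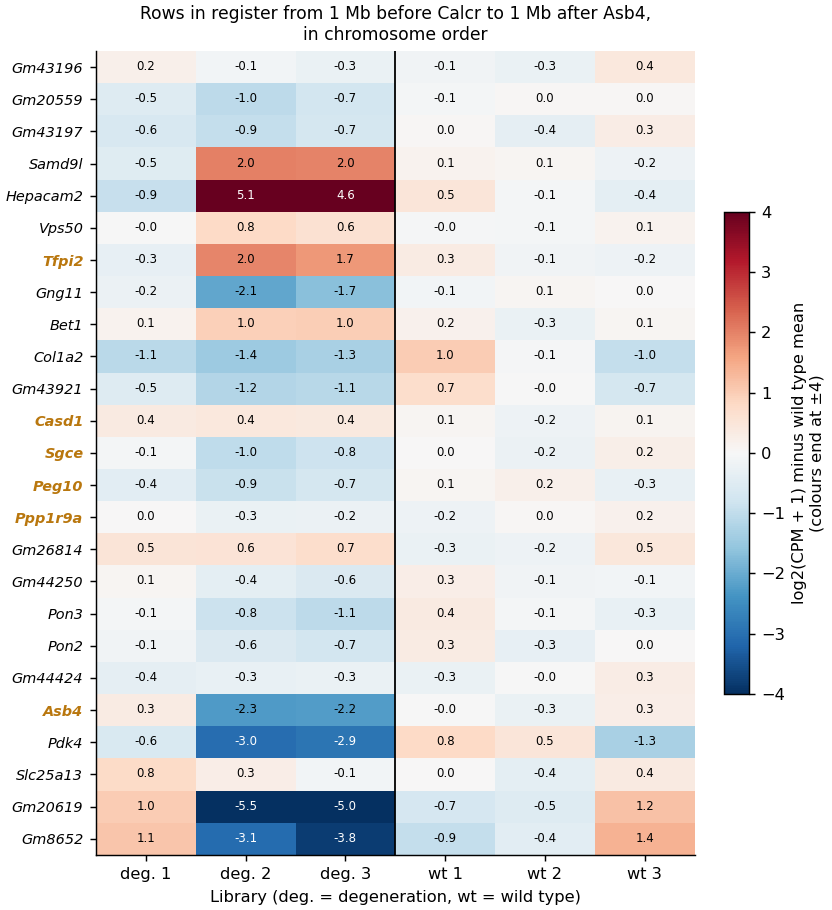
Difference of log2(CPM + 1) from the wild type mean in each library (columns, degeneration left of wild type) for rows in register with a mean of at least 5 CPM within 1 Mb of the cluster, in chromosome order, with the described genes in brown. Tfpi2 sits among rows that are red in degeneration 2 and 3, such as Samd9l, and rows that are blue there, such as Gng11. Casd1 varies little, with every degeneration library above every wild type library.

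Imprinted genes elsewhere could be followed for few loci. Of a list of 49, 15 had a row placed by position, most over a small part of their exons, and 11 were tested in a fit over 5434 loci. None passed with all 6 libraries. In CPM the groups did not overlap for 5 of the 11, with Zim1 higher in degeneration and Mest, H19, Meg3 and Rian lower, 1 and 4 of 11, where 11.6% and 9.39% of all loci showed these orders. Mest, the other imprinted gene of chromosome 6 that was in register, is read from the father's copy as Peg10 is. It had 38.1, 24.9 and 21.5 CPM in degeneration 1 to 3, against 43.6, 38.9 and 46.1 CPM in wild type 1 to 3 (log2 fold change -0.76 ± 0.35, edgeR adjusted p = 0.290). H19, a maternally expressed non-coding RNA, had 62.7, 1.45 and 0 CPM in degeneration 1 to 3, against 114, 177 and 87.7 CPM in wild type 1 to 3. Rian, a non-coding RNA of the Dlk1-Dio3 cluster, had 34.3, 4.35 and 5.45 CPM in degeneration 1 to 3, against 58.9, 48.9 and 45.8 CPM in wild type 1 to 3. Meg3 had 12.0, 0.579 and 1.60 CPM in degeneration 1 to 3, against 22.7, 22.4 and 12.7 CPM in wild type 1 to 3. In Mest, H19, Meg3 and Rian degeneration 1 stood nearer to wild type than degeneration 2 and 3 did. In Mest and Meg3 degeneration 1 lay only just below the lowest wild type library, so their order between groups rests on a near tie. Without degeneration 1, 3 of the 11 rose (Herc3, Peg3 and Zim1) and 5 fell (Mest, H19, Igf2r, Meg3 and Rian), in a fit where 53.0% of loci passed (26.8% higher, 26.2% lower).

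A second deposited table holds FPKM (fragments per kb of exon, scaled to the depth of each column) under the headers treat1 to treat3 and control1 to control3, words that the sample labels do not use. The columns were grouped as treat for degeneration and control for wild type by these words alone, and no column was tied to a library. The intervals of the 7 genes are the same there as in the count tables, and the FPKM may come from the same samples, so they lend no independent support. Peg10 had 0.440, 0.244 and 0.410 FPKM in treat1 to treat3, against 0.480, 0.555 and 0.600 FPKM in control1 to control3. All treat columns stood below all control columns, an order met by 3.29% of the 22910 rows tested. Casd1 had 8.19, 9.15 and 9.52 FPKM in treat1 to treat3, against 5.24, 5.39 and 6.36 FPKM in control1 to control3. All treat columns stood above all control columns, an order met by 20.3% of rows.

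None of the 6 genes tested in FPKM passed with 6 columns, where 0% of rows did (limma on log2(FPKM + 1), adjusted p). The log2 differences, which understate the change of low genes on this scale, were 0.58 ± 0.17 for Casd1 (limma adjusted p = 0.246) and -0.18 ± 0.12 for Peg10 (0.348), beside a median of 0.23 over all rows. Tfpi2 had 0.603, 3.40 and 2.95 FPKM in treat1 to treat3, against 0.474 to 0.669 FPKM in the control columns, and Asb4 had 1.87, 0.254 and 0.258 FPKM in treat1 to treat3, against 1.06 to 1.82 FPKM. Treat1 stood with the control columns in Tfpi2 and Asb4, and treat2 and treat3 apart from them. Sgce had 2.01, 0.842 and 1.08 FPKM in treat1 to treat3, against 1.39 to 1.89 FPKM in the control columns, and Ppp1r9a had 5.56 to 7.66 FPKM, against 4.92 to 8.50 FPKM. Calcr had 0, 0.128 and 0.180 FPKM in treat1 to treat3, against 0.0111, 0.0141 and 0 FPKM in control1 to control3, and lay below the filter of a mean of 0.1 FPKM. Without treat1, Tfpi2 rose by 1.41 ± 0.12, Casd1 rose by 0.64 ± 0.14 and Asb4 fell by 0.93 ± 0.16 on that log2 scale (limma adjusted p of 0.000570, 0.0142 and 0.00624), where 46.7% of rows passed. Sgce (-0.39 ± 0.14, limma adjusted p = 0.0653), Peg10 (-0.22 ± 0.098, 0.114) and Ppp1r9a (-0.065 ± 0.23, 0.826) did not pass without treat1, although all 3 passed without degeneration 1 in the counts. Casd1 passed without treat1 in FPKM, where the median of all rows was 0.30, and stood at -0.013 without degeneration 1 in the counts, where that median was 0.025. The cause of these differences between the tables was not tested.

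**Figure D5:**
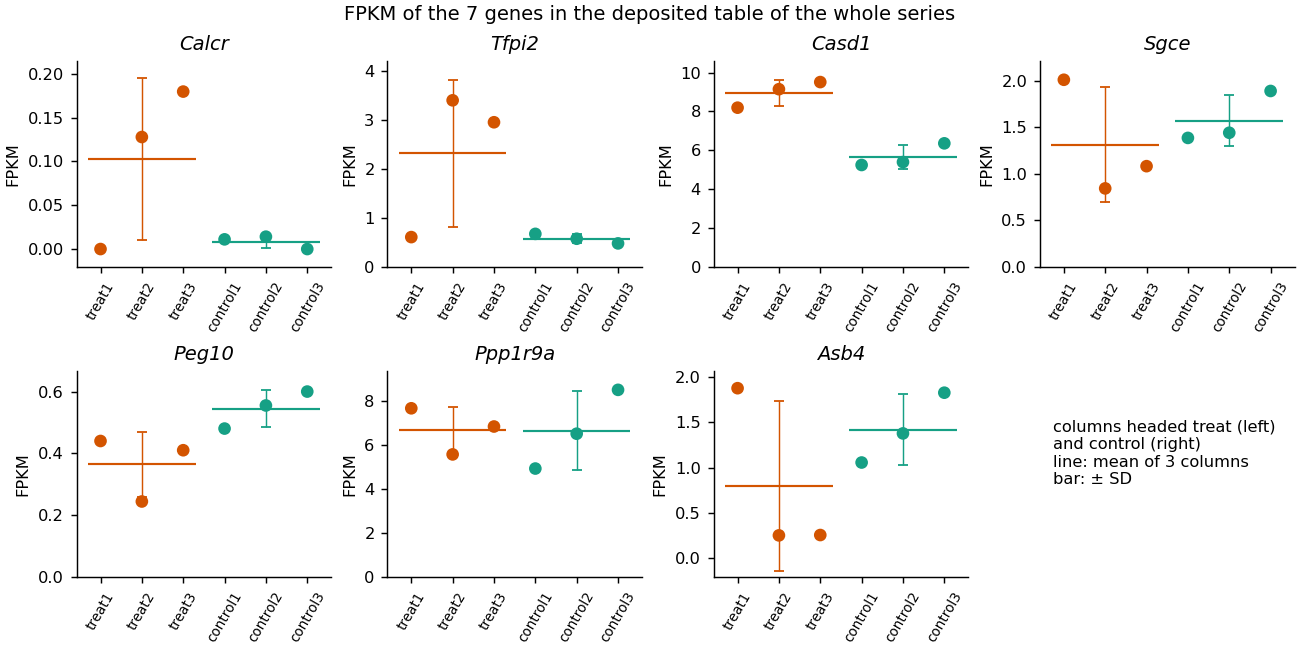
FPKM (vertical axes, linear) of the 7 genes in the columns headed treat1 to treat3 (orange) and control1 to control3 (green) of the deposited table, with lines for means and bars for the SD of 3 columns. Casd1 and Peg10 show no overlap between the column groups, at 8.19 FPKM or more against 6.36 FPKM or less for Casd1.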

How the data were processed

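RNA was extracted from mouse discs with Trizol and made into libraries with an Illumina TruSeq kit, per the labels' protocols. The authors deposited raw counts per gene name, made by featureCounts 2.0.1 from read pairs with both ends mapped, over exons and without a strand option, per the file headers. The deposited FPKM table gives no method. Its 12 value columns include 6 of counts that were not used. The submitters' processing notes name the builds mm8 and mm9 and the aligner Bowtie 0.12.2, with no role; the build of the counts is not given in the sources used here. Antisense reads cannot be told apart.

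Counts were used as deposited, with CPM from totals over all 53546 rows. Row intervals were set against GENCODE M21 exons on GRCm38 (bedtools 2.31.1, Python 3.11.15). Other genes were read by position: rows took the name of the gene holding at least 80% of the exon bases under them, with at least 100 bases. The test was edgeR 4.0.16 (R 4.3.3; TMM, filterByExpr, threshold 0.05, no covariate) over all rows, and limma 3.58.1 on log2(FPKM + 1) for rows with a mean of at least 0.1 FPKM. DESeq2 1.42.0, other filters and scalings, and each library left out were alternatives. The edgeR fit was checked on counts simulated from the wild type libraries alone, a check that does not cover the split within degeneration. SEs come from the test statistic. All 7 genes are named, as are neighbours with a mean of at least 5 CPM that the text describes; the 3 most alike rows were taken by r. The members and lists were chosen with earlier results of these data known. Limits for a count of 0 and Wilson intervals cover counting error alone, because PCR copies were not marked by molecular identifiers.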

Additional observations from a re-analysis of the deposited data

How the results depend on the processing

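With all 6 libraries no gene of the cluster passed under DESeq2 size factors, library totals, DESeq2, limma-trend, either other filter, rows in register alone, rows relabelled by position (added after seeing the data) or the replicate block. DESeq2 called 969 rows where edgeR called 0 (2596 at an unadjusted p under 0.05). Leaving out 1 library at a time gave 0 to 8703 rows and 0 to 6 genes of the cluster, the upper end without degeneration 1, with Calcr among the 6 although it entered that fit only through the libraries where it is high; without degeneration 2 and 3, added after seeing the data, 2 rows passed. Log2 fold changes turned sign without degeneration 2 and 3 for Tfpi2 (-0.35), Ppp1r9a (0.072) and Asb4 (0.41), and without degeneration 1 for Casd1 (-0.013, with 0.27 at the other end of its range over single libraries left out). Of 96 refits of single genes in counts, 87 kept direction and side of the threshold, 4 turned and 5 passed anew. The log2 difference of the Peg10 to Sgce ratio was 0.047 with 10 added to each count, and between -0.34 and 0.17 with 1 library left out (0.097 without degeneration 1, 0.17 without wild type 2). In FPKM, a pseudocount of 0.1 gave 1 row, and leaving out 1 column 0 to 10774, the upper end without treat1; Ppp1r9a ran between -0.15 and 0.20 over single columns left out (-0.15 without control1, -0.065 without treat1). With the replicate number as a block 0 rows passed and Peg10 stood at -0.94 ± 0.32 (edgeR adjusted p = 0.386). Libraries of the same number correlated at -0.080, 0.099 and -0.12 in their deviations. The deviations within degeneration hold the split of degeneration 1 from degeneration 2 and 3. Whether the numbers pair libraries was not tested apart from that split. Depth limits Calcr, at 11 counts or fewer, and Peg10, at 30 to 72; the causes of these changes were not tested.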

Other observations

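Sgce belongs to the dystrophin-glycoprotein complex, which links the cell skeleton to the matrix. Of 15 other genes of the complex 5 had a row placed by position, and none of the 5 passed with all 6 libraries (edgeR, Benjamini-Hochberg). Sgcb, the beta-sarcoglycan gene, had 155, 20.9 and 18.6 CPM in degeneration 1 to 3, against 98.8, 80.5 and 124 CPM in wild type 1 to 3, so that degeneration 2 and 3 were lowest, as in Sgce. Dtnb, which encodes beta-dystrobrevin, had 43.1, 94.4 and 97.8 CPM in degeneration 1 to 3, against 33.9, 43.1 and 38.0 CPM in wild type 1 to 3, with degeneration 1 next to the highest wild type library. Without degeneration 1, Dtnb rose and Sgcb, Dag1 and Utrn fell, in the fit over loci where 53.0% of loci passed.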
